A study of Homo sapiens with 49 samples.

Results

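The early transcriptional response to a high dose of doxorubicin was described in 6 established lines of diffuse large B-cell lymphoma, a fast-growing cancer of the B lineage. The lines were U2932, RIVA, FARAGE, OCI-Ly7, NU-DHL-1 and SU-DHL-5. The 6 arrays of cells exposed to 2.5 µg/mL for 2 h were compared with the 6 arrays of untreated cells harvested at 2 h, and each treated array was set against the untreated array of its own line. These 12 arrays of the 49 in the series were selected because their titles give that dose, or no drug, at 2 h. Of the other arrays, the 6 at 0.00061 µg/mL and 2 h and the 6 untreated at 0 h served as background. All lines were grown in RPMI medium with a serum concentration that was not the same for every line, and no line carries a transgene according to the labels. Each line had 1 array per condition, so that the line is the replicate and no value measures the spread between repeated cultures of a line. An established line is a single tumour's descendant in culture, without the tissue around it. The question is how uniformly the lines respond at this early time, which groups of genes take part, and which genes respond in some lines and not in others.

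Doxorubicin slides between the bases of DNA, traps topoisomerase II on cut DNA and can evict histones from chromatin. Cells answer DNA breaks and stalled transcription within minutes through kinases that stabilise p53, through the stress-activated MAP kinases that switch on immediate early genes such as the AP-1 subunits, and through NF-kB. At such an early time a messenger RNA can fall quickly only if it is short-lived, and many messengers of transcription factors and feedback regulators are. In B cells a dense network of lineage factors, with PAX5, EBF1 and the Ikaros family at its centre, maintains cell identity.

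Values are log2 intensities on an arbitrary scale, so that a difference of 1 is 2-fold. The ± after a mean difference is the limma standard error over the 6 lines, and a gene was called at a Benjamini-Hochberg adjusted p below 0.05 over all 19775 genes. Each of the 24 arrays at 0 and 2 h correlated best with another array of its own line. The correlations were at least 0.992 within a line and at most 0.952 between lines. The 7 B-cell markers measured averaged 10.5 to 11.4 on the treated and 10.5 to 11.4 on the untreated arrays. The 5 lists of markers of other cell types averaged between 3.96 and 5.46 on every array of both groups. Of those 30 markers 1 was called, the erythroid gene ALAS2 (0.35), and the part of other cells in the results was not tested. The deposited values were normalized between arrays, so that a direction is relative to the bulk of the genes. With arrays scaled to the spiked poly-A controls in place of this, the median gene moved from a difference of 0.02 to -0.14, and the number of called genes from 2057 to 344. That shift leaned on OCI-Ly7, where the control median moved by 0.87 against -0.20 to 0.16 in the other lines. The same treated arrays set against those at 0.00061 µg/mL and 2 h gave 2019 called genes, and 1835 on the poly-A scale.

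The response was broad and shallow. After 2 h at 2.5 µg/mL 2057 genes (10.4% of those tested) were called, 796 higher (4.03%) and 1261 lower (6.38%). With each array centred on its median the split was 524 higher and 1438 lower. Most of the called genes moved little. Among them 702 of the rises and 1028 of the falls were smaller than 0.5, 76 and 219 lay between 0.5 and 1, and 18 and 14 reached 2-fold. The median size was 0.25 for rises and -0.34 for falls, and the median standard error over all genes was 0.09. The treated and the untreated arrays overlapped for nearly every gene. For 34 genes (0.172% of those tested) they did not overlap, 24 with all treated arrays above (0.121%) and 10 with all below (0.0506%).

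Many genes had one direction in all lines. Of all genes 3161 had the same sign in 6 of 6 lines at the high dose, 1554 above 0 (7.86%) and 1607 below (8.13%), against 557 (2.82%) at 0.00061 µg/mL in the same lines. Of the 2057 called genes 1802 had one sign in all 6 lines, 252 in 5 lines and 3 in fewer, which is a description, since the paired test favours genes whose lines agree. At the low dose 0 genes were called by limma, 809 had an unadjusted p below 0.05 (4603 at the high dose) and the smallest adjusted p was 0.999. Tested directly between the doses, 2019 genes (10.2%) were called, 834 higher (4.22%) and 1185 lower (5.99%) at the high dose. This comparison shares its treated arrays with the one against untreated cells, and 1619 genes were called in both. Untreated cells at 2 h against 0 h gave 123 calls (0.622%), so that the time in culture alone changed few genes by this test.

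The size of the differences varied more from line to line. In 15 pairs of lines, Pearson's r between the log2 differences of all genes ran from 0.18 (FARAGE and RIVA) to 0.40 (FARAGE and U2932). At the low dose it ran from -0.08 to 0.04. These are correlations across genes of single array pairs, and genes are not independent replicates. By the brightest probe set of each gene, a 2-fold rise was seen in only 1 line for 132 genes and in all 6 lines for 1 gene, JUN. A 2-fold fall was seen in only 1 line for 303 genes and in all 6 lines for 2, PPP1R10 and GTF2H2B. FARAGE had the widest spread of differences, with an SD over genes of 0.34, against 0.23 (OCI-Ly7) to 0.28 (U2932) in the other lines. At the low dose these SDs were 0.17 to 0.20. In FARAGE 247 genes were at least 2-fold lower and 38 higher. In the other lines 18 to 71 were lower and 26 to 77 higher.

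JUN, ATF3 and ZBTB11 are shown with the DNA before their start sites because all carry a site of the form TGACNTCA, which JUN and ATF dimers can bind, and because they span the kinds of rise seen here. JUN was the gene with a 2-fold rise in every line, ATF3 was higher in all lines but 1, and ZBTB11 was higher by nearly the same amount everywhere. NFKBIA is shown because its response differed widely between lines and its promoter is a textbook target of NF-kB. The sequences are the 250 bases upstream of the RefSeq start site in GRCh38.p14, on the strand of the gene, with the site in capitals.
JUN, chr1:58784048-58784297, minus strand: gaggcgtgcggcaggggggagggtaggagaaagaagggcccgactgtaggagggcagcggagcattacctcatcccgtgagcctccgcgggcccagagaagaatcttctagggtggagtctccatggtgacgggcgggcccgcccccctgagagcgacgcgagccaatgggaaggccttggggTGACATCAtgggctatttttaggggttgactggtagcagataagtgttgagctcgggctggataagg
ATF3, chr1:212565157-212565406, plus strand: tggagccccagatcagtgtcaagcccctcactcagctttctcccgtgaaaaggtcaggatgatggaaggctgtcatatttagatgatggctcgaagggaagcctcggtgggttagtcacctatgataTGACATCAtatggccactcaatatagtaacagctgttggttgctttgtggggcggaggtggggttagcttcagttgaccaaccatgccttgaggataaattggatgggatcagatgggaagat
ZBTB11, chr3:101677133-101677382, minus strand: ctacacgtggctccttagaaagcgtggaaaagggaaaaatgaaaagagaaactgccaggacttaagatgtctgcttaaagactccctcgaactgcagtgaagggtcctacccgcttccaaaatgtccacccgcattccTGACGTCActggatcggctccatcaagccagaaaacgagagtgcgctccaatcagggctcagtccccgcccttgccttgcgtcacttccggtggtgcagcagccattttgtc
NFKBIA, chr14:35404750-35404999, minus strand: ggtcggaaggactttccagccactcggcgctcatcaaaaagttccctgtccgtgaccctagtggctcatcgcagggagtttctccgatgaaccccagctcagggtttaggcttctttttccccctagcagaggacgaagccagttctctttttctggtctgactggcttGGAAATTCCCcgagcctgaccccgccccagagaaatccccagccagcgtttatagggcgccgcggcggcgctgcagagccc
Counted from the start site, the site begins at -67 in JUN, -123 in ATF3 and -112 in ZBTB11. In ZBTB11 it is the full cyclic AMP response element TGACGTCA, which reads the same on both strands. In NFKBIA the capitals are a match, on the opposite strand and at -81, to a loose NF-kB motif of GGGA, any 4 bases and CC. JUN ran from 5.44 to 7.97 (median 6.47) in untreated cells and from 7.64 to 9.55 (median 8.39) in treated cells. It was 2-fold or more higher in every line, from 1.01 in SU-DHL-5 to 3.04 in OCI-Ly7. The other JUN probe sets, all dimmer, had mean differences of 0.68, 1.25 and 0.65. ATF3, a stress-induced repressor of the same family, stood at a median of 6.09 (4.97 to 7.89) before and 7.45 (5.84 to 8.67) with the drug. It rose by 1.14 on average (adjusted p = 0.00891), with 2.32 in NU-DHL-1 and 2.06 in SU-DHL-5 but -0.21 in U2932. This was the brightest ATF3 probe set, with an untreated mean of 6.14. The others did not show a rise of that size, with mean differences of 0.05 (untreated mean 5.77) and 0.20 (3.80).

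Uniformity was ranked by the mean difference over its SD across lines. The most uniform rise of at least 0.5 was that of ZBTB11, a zinc finger transcription factor. Its level ran from 9.08 to 9.56 (median 9.17) without and from 9.71 to 10.1 (median 9.73) with the drug. No treated array lay below any untreated one, and the 6 differences ran from 0.45 (U2932) to 0.62, with a mean of 0.56 ± 0.04 (adjusted p = 2.5e-05). FAM53C, a little-studied nuclear protein gene, ran from 9.58 to 10.3 (median 9.91) untreated and from 10.6 to 11.2 (median 10.8) treated. Its groups did not overlap either, and it rose by 0.89 ± 0.05, the smallest adjusted p among the uniform genes (2.67e-06). SERTAD1, a coregulator of E2F and cyclin D kinases, rose by 1.08 ± 0.08 and by at least 0.79 in every line. NFKBID, a nuclear inhibitor-like partner of NF-kB, rose by 1.09 ± 0.08, between 0.79 and 1.36. The lysosomal sialidase NEU1 (0.74), the acetyltransferase NAT1 (0.55), the antisense transcript EMC3-AS1 (0.53) and the pseudogene DBIL5P (0.59) completed the 8 most uniform rises. A probe set for an antisense transcript or a pseudogene may also take up RNA of its partner, so that these 2 are uncertain.

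Falls were as even. ANLN, the actin-binding protein anillin that acts in cytokinesis, fell by 0.50 ± 0.05. Its 6 differences lay between -0.57 and -0.45, the tightest of the 16 most uniform genes, with untreated levels of 8.16 to 9.84 (median 9.44) and treated levels of 7.59 to 9.37 (median 8.92). The groups overlapped in level, while the 6 responses lay close together. SFMBT2, a Polycomb-type repressor, fell by 0.71 ± 0.07, although its untreated level ran from 4.47 to 8.33. NRF1, the nuclear respiratory factor that drives genes of mitochondrial biogenesis, fell by 0.69 ± 0.06, from 7.35 to 8.11 (median 7.74) to 6.59 to 7.54 (median 7.01). The other uniform falls were ZC3H10 (-0.64), EID2B (-1.01), ZNF26 (-0.63), MAGEF1 (-0.51) and GTF2H2B (-1.31). GTF2H2B is a copy of the gene for a TFIIH subunit, and its near-identical copies cannot be told apart on the array, so that its identity is uncertain.

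**Figure D1:**
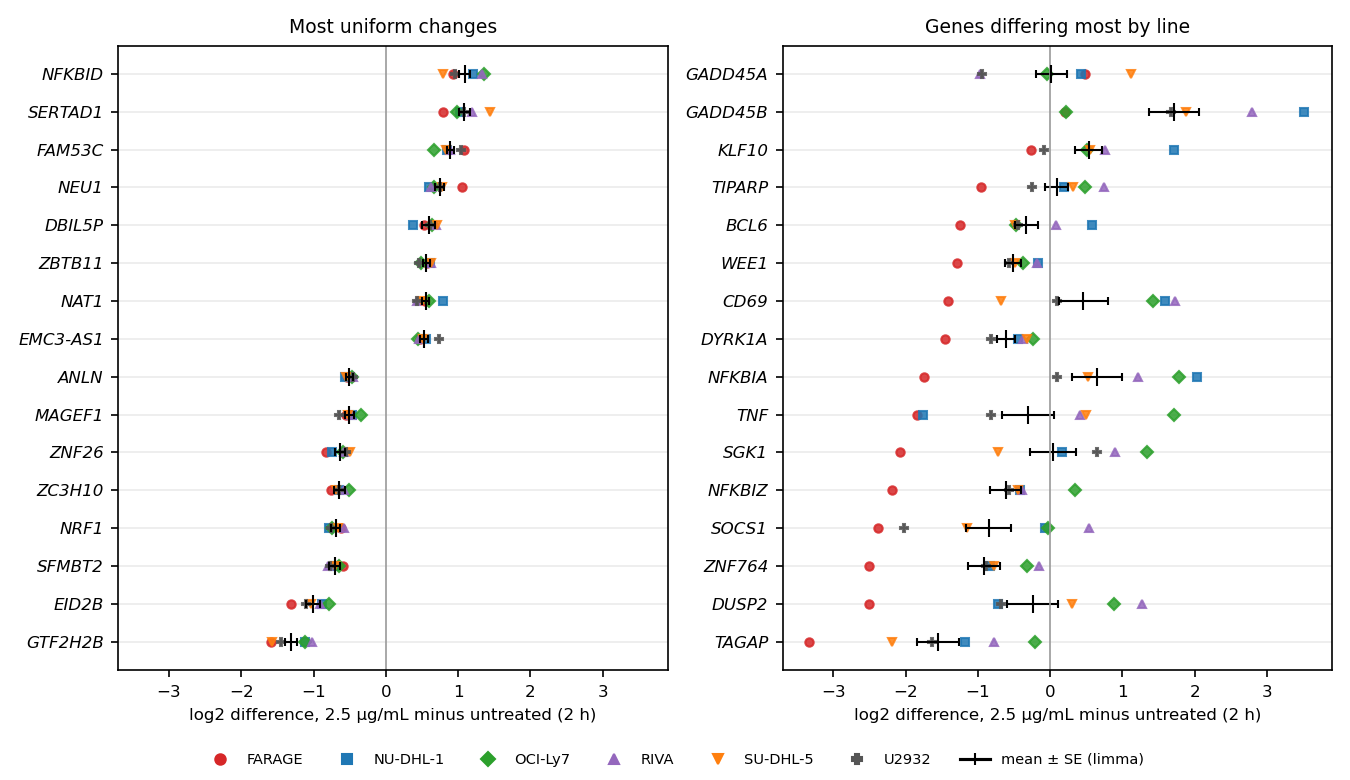
Log2 difference between 2.5 µg/mL and untreated cells at 2 h in each of the 6 lines (coloured points), with the mean and limma standard error in black. The most uniform changes are on the left, where the 6 points of ANLN lie between -0.57 and -0.45, and the 16 genes with the smallest adjusted p for a difference between lines are on the right, where NFKBIA runs from -1.75 to 2.03.

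Beyond the 12 largest rises, ranks 13 to 24 held regulators of transcription, a receptor and metabolic enzymes. Only genes with one sign in all 6 lines and a mean above the median gene in the group where they were higher could enter this ranking, which left out ATF3, IER5, RGS16 and BAMBI. The translational repressor gene NANOS1 rose by 0.96 ± 0.15 from a low level (median 5.81 untreated), from 0.21 in NU-DHL-1 to 1.40 in SU-DHL-5. CSRNP2, a cysteine- and serine-rich nuclear protein, rose by 0.94 ± 0.11. IRF7, the interferon regulatory factor, went from 6.59 to 8.82 (median 7.48) to 7.57 to 9.55 (median 8.52), which is a rise of 0.90 ± 0.10 with the least in OCI-Ly7 (0.35). RSRP1, an arginine- and serine-rich protein, did not overlap between groups, with 10.1 to 10.8 untreated and 11.02 to 11.7 treated. HEXIM1, which holds the elongation kinase P-TEFb inactive, rose by 0.70 ± 0.08, from a median of 8.07 (7.46 to 10.3) to 8.81 (8.49 to 10.7). The TRAIL receptor TNFRSF10B (0.72), LACC1 (0.72), the long noncoding KCNQ1OT1 (0.68) and the polyamine acetyltransferase SAT1 (0.67) followed. SAT1 was uneven, with 1.49 in FARAGE and 0.30 in SU-DHL-5.

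The falls of ranks 13 to 24 were of mixed function. KBTBD6, a ubiquitin ligase adaptor, fell by 0.95 ± 0.11, and the TALE homeobox repressor TGIF1 by 0.91 ± 0.10. KLF6, an early zinc finger factor, fell by 0.85 ± 0.07, from 8.26 to 9.63 (median 8.98) to 7.63 to 9.04 (median 8.07). It was lower in every line, by 0.58 at the least. ZNF764 (-0.91), ZNF567 (-0.88), PLEKHG1 (-0.89), ABHD13 (-0.87), TIGD1 (-0.84) and RUNDC1 (-0.83) had their lowest value in FARAGE, except TIGD1, which was lowest in U2932. RNA45SN5, a copy of the precursor of ribosomal RNA (-1.05), and NAIP (-0.83) belong to families of near-identical copies and are uncertain.

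**Figure D2:**
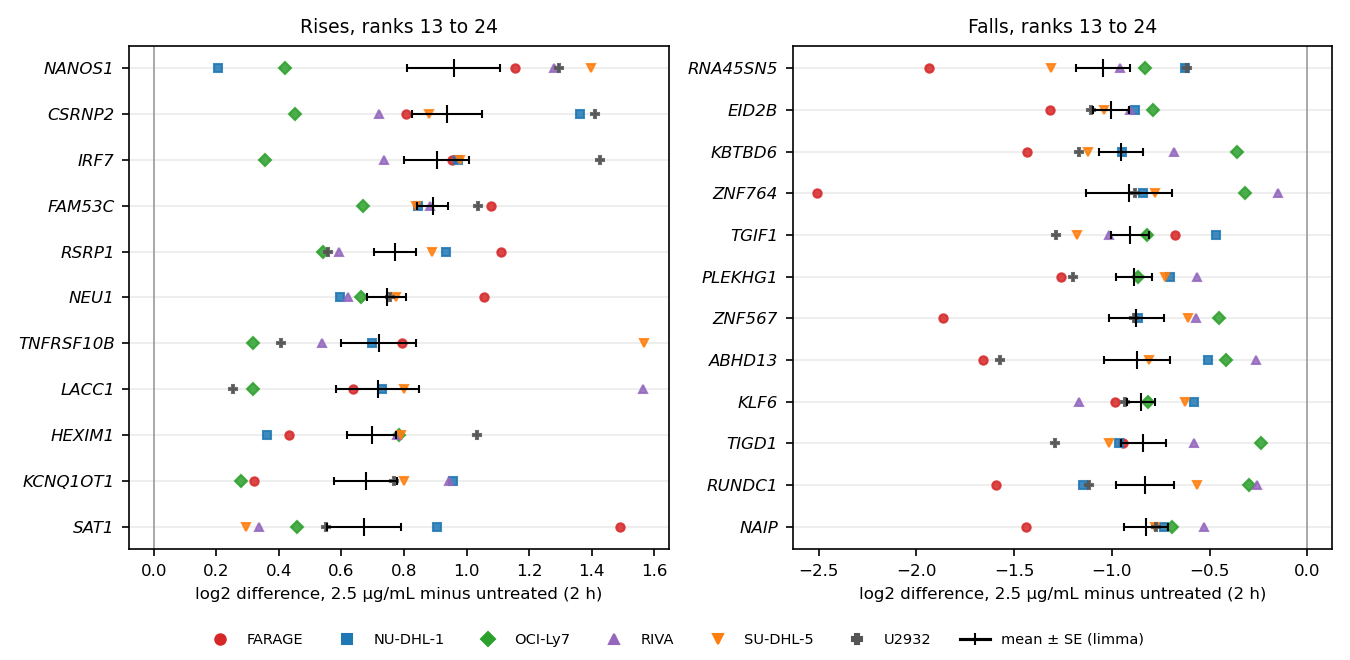
Log2 difference at 2 h in each line for the rises (left) and falls (right) of ranks 13 to 24 by size, apart from 1 rise that is not reported here, with the mean and limma standard error in black. One sign in all lines was a condition of the ranking, so that only the spread is informative; IRF7 runs from 0.35 to 1.43.

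Of 38 groups of genes with a known function, most held members that passed the test in both directions. Genes above the median untreated level are the better yardstick for lists of expressed genes, and of these 19.2% were called, 7.12% higher and 12.0% lower. Against untreated cells on the poly-A scale every list median lay lower, by the same shift as the median gene, and few rises were called: 0 of the antioxidant, heat shock, integrated stress, elongation, general transcription and p53 genes, 1 interferon gene, 2 early zinc finger and IER genes and 5 AP-1 and ATF factors. The lists were not counted on that scale between the doses. Some counts were lower with a line left out, which was counted for FARAGE, SU-DHL-5 and U2932 only. Over all genes the calls also fell, to between 1368 and 1729 with each line left out in turn. Without U2932 the interferon rises numbered 4, the falls of TNF ligands and receptors 0, of general transcription factors 2 and of integrated stress genes 1, and MAP kinase feedback had 1 rise. In the same order these counts were 5, 0, 4, 3 and 2 without FARAGE and 5, 1, 3, 2 and 2 without SU-DHL-5. The mRNA decay factors had 3 falls without FARAGE, SU-DHL-5 or U2932, and the histones 1 without SU-DHL-5. Up to 5 members of a group were named by smallest adjusted p, and members named beyond these were chosen after their values were seen.

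**Figure D3:**
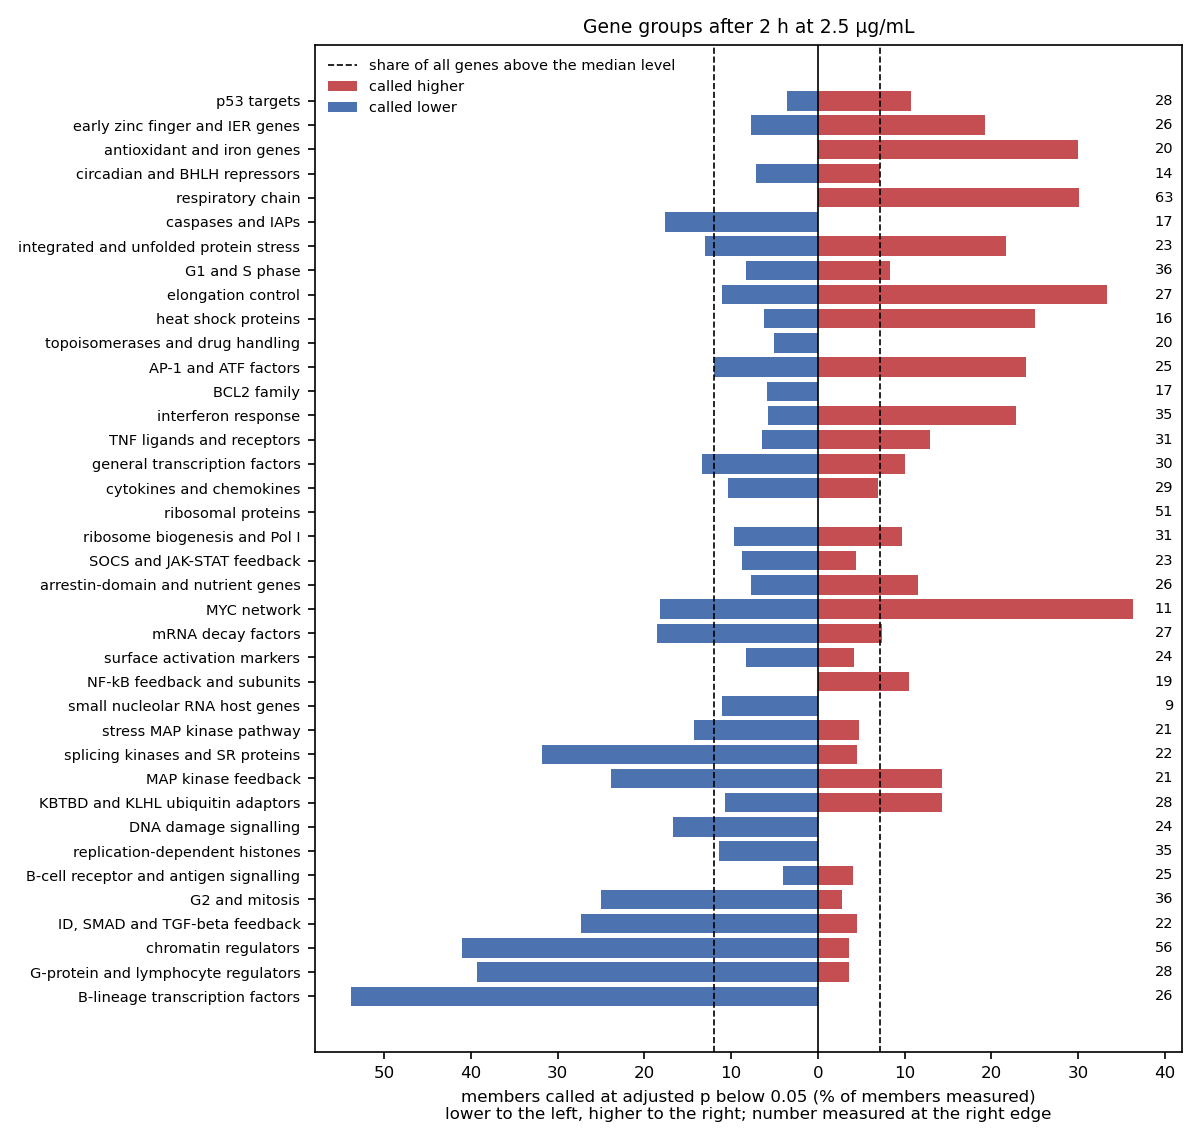
Share of the measured members of each of 38 gene groups that were called higher (red, right) or lower (blue, left) after 2 h at 2.5 µg/mL, ordered by median difference, with the number measured at the right edge. Dashed lines mark the shares over all genes above the median level (7.12% higher, 12.0% lower); among B-lineage transcription factors 14 of 26 were called lower and 0 higher.

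The B-lineage transcription factors had the lowest median of the groups, -0.28 against 0.02 for all genes. Of 26 measured members 14 fell, 0 rose and 12 did not pass. BCL11A, a zinc finger factor of early lymphoid cells, fell by 0.69 ± 0.06, from 8.97 to 11.6 (median 9.76) to 8.18 to 10.8 (median 8.96). Its other 3 probe sets stood at -0.90, -0.82 and, for the dimmest, -0.05. Members of the Ikaros family fell, with IKZF1 at -0.33, IKZF2 (Helios) at -0.58 and IKZF3 (Aiolos) at -0.48. IKZF3 lay between -0.56 and -0.38. EBF1 fell by 0.38 and PAX5, the factor that commits cells to the B lineage, by 0.28, with PAX5 between 11.3 and 12.5 before and between 10.9 and 12.2 after. FOXO1 (-0.56), ETV6 (-0.46) and BACH2 (-0.41) fell as well. In every line the median of the group lay below 0, between -0.32 (U2932) and -0.13 (SU-DHL-5). Without U2932 10 members were called lower. On the poly-A scale 4 were.

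Chromatin regulators were called lower more often than higher. Of 56 measured 23 fell, 2 rose and 31 did not pass, with a median of -0.13. The histone H3 lysine 27 demethylase KDM6A fell by 0.64 ± 0.08, from a median of 8.02 (7.17 to 8.91) to 7.13 (6.67 to 8.30). The corepressor BCOR (-0.70), ARID5B (-0.61), the acetyl-reader BRD1 (-0.48), CHD7 (-0.43), CHD1 (-0.40), the methyltransferases SETD2 (-0.39) and KMT2A (-0.36), and the acetyltransferase CREBBP (-0.33) also fell. KDM6B, a close relative of KDM6A, rose by 0.35 and CHD4 by 0.15. Averaging the probe sets of a gene in place of taking the brightest left 13 members lower and 0 higher, and 4 were called lower on the poly-A scale.

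G-protein and lymphocyte signalling regulators fell in 11 of 28 cases and rose in 1, with 16 not passing and a median of -0.22. P2RY8, a receptor that confines germinal centre B cells, fell by 0.61 ± 0.07 and P2RY10 by 0.46. The phosphodiesterase PDE7A fell by 0.33. RGS16, which shortens G-protein signals, rose by 1.03, with -0.19 in FARAGE and 1.88 in RIVA. Splicing kinases and SR proteins had 7 of 22 lower and 1 higher, with SRSF3 at -0.23, SRSF6 at -0.25, the kinase SRPK2 at -0.29 and HNRNPA1 at 0.26. Of 27 mRNA decay factors 5 fell and 2 rose. Of the CCR4-NOT deadenylase complex, CNOT6L (-0.48) and CNOT4 (-0.59) fell and CNOT8 rose by 0.22, and TOB2, which recruits the complex, rose by 0.29.

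Elongation control genes were called in both directions, 44.4% of them against 19.2% of genes above the median level. Of 27 elongation control genes 9 rose, 3 fell and 15 did not pass. Beside HEXIM1, its partner in the 7SK complex MEPCE rose by 0.30, the P-TEFb cyclin CCNT1 by 0.17, cyclin K (CCNK) by 0.21 and POLR2A, the large subunit of RNA polymerase II, by 0.45 ± 0.04. POLR2A went from 8.71 to 9.85 (median 9.27) to 9.19 to 10.2 (median 9.71). PPP1R10, which targets protein phosphatase 1 in the nucleus, fell from a median of 8.55 (7.99 to 9.47) to 7.28 (5.78 to 8.07), with CDK12 at -0.29 and AFF1 at -0.39. Centred on array medians the count was 5 higher and 4 lower. Of 30 general transcription factors 3 rose and 4 fell, which is 23.3% called and near the share of genes above the median level. Their median difference was 0.01. GTF2B (TFIIB) rose by 0.47 ± 0.05, from 9.72 to 10.3 (median 10.1) to 10.1 to 10.8 (median 10.6), while the Mediator subunit MED26 fell by 0.36 and TAF4 by 0.33.

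AP-1 and ATF factors were called in both directions, 36% of them against 19.2% of genes above the median level. Of 25 measured 6 rose, 3 fell and 16 did not pass. FOSB (0.82), JUNB (0.89) and MAFG (0.23) rose beside JUN, MAFF and ATF3. CREB1 (-0.33), BACH2 (-0.41) and JDP2, a dimer partner that restrains AP-1 (-0.43), fell. Of 26 early zinc finger and IER genes 5 rose and 2 fell. IER5 rose by 1.05 but stood at -0.14 in FARAGE, and NR4A2, KLF5 and SNAI1 rose from levels below the median gene (0.67, 0.77 and 0.49). KLF13 fell by 0.29. MAP kinase feedback genes had 3 of 21 higher and 5 lower. The phosphatases DUSP10 (0.59) and DUSP5 (0.62) rose beside DUSP1, for which the other probe sets, both dimmer, stood at -0.0047 and 0.27. The Sprouty-related inhibitors SPRED1 (-0.64) and SPRED2 (-0.49) and the pseudokinase TRIB2 (-0.42) fell. Of the stress MAP kinase pathway 1 of 21 rose and 3 fell, which is 19.0% called and near the 19.2% of genes above the median level. The upstream kinases MAP3K5, MAP3K4 and MAP3K1 stood at -0.51, -0.35 and -0.24.

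In the MYC network 4 of 11 measured members rose and 2 fell. The repressive partners of MAX named MXD1, MNT (0.49) and MXD3 (0.34) rose, as did MYCL (0.64) from a low level. MGA, another MAX partner, fell by 0.58. NF-kB subunits and feedback genes had 2 of 19 higher, NFKBID and NFKB2 (0.58 ± 0.10), and 0 lower. This is 10.5% called, against 19.2% of genes above the median level. Without FARAGE 5 were called higher. Of 31 TNF ligands and receptors 4 rose and 2 fell, which is 19.4% called and near the share of genes above the median level. TNFSF9, a costimulatory ligand, ran from 7.64 to 9.21 (median 8.47) untreated and from 9.32 to 10.1 (median 9.70) treated, without overlap, though the rise in FARAGE was only 0.29. TNFRSF17, the BCMA receptor of plasma cells, fell by 0.27.

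Of 23 integrated and unfolded protein stress genes 5 rose, 3 fell and 15 did not pass. The chaperone cofactor DNAJB9 rose by 0.67 ± 0.06, from 7.67 to 9.66 (median 8.66) to 8.54 to 10.1 (median 9.32), and PPP1R15A, which restarts translation, by 0.75. HERPUD1 (-0.59), DDIT4 (-0.59) and ATF4 (-0.32) fell. Of 16 heat shock genes 4 rose, among them BAG3 (0.39) and DNAJB4 (0.61), and DNAJB1 fell by 0.41. Of 20 antioxidant and iron genes 6 rose and 0 fell, with SOD2 at 0.42, GPX1 at 0.28 and GCLC, the rate-limiting enzyme of glutathione synthesis, at 0.18. Interferon response genes had 8 of 35 higher and 2 lower. IRF1 (0.69), IRF3 (0.33) and the RNA sensor IFIH1 (0.37) rose and IRF2 fell by 0.52. Centred on array medians, 4 interferon genes were called higher and 2 lower.

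Differences of respiratory chain genes were small and mostly above 0. Of 63 measured 19 were called higher, 0 lower and 44 did not pass, and 59 had a mean above 0, 25 of them in all 6 lines. The called differences were small, from 0.09 (ATP5PF) to 0.17 (NDUFA6), and NDUFB9 of complex I stood at 0.15, between 0.09 and 0.20. None of the 63 differed by line. This group depended on how arrays were scaled: 8 were called higher after centring, 0 on the poly-A scale, where the median went from 0.08 to -0.09 while the median gene was at -0.14, and 10 without FARAGE, without SU-DHL-5 or without U2932. With the mean of the probe sets of a gene 7 were called higher and 4 lower. Of 51 ribosomal proteins 0 were called in either direction, with mean differences between -0.11 and 0.05.

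Of 36 G2 and mitosis genes 9 fell and 1 rose. The mitotic kinesins KIF20A (-0.55) and KIF23 (-0.36), the checkpoint kinase gene BUB1B (-0.40) and the centromeric histone CENPA (-0.38) fell, and CDK1 rose by 0.11. KIF20A went from 8.64 to 9.53 (median 9.29) to 8.14 to 9.03 (median 8.57). Of 24 DNA damage signalling genes 4 fell and 0 rose. This is 16.7% called, against 19.2% of genes above the median level, of which 12.0% were called lower. H2AX, the histone variant phosphorylated at breaks, fell by 0.56 ± 0.04, from 9.94 to 11.6 (median 10.8) to 9.38 to 10.96 (median 10.1), and BARD1, the partner of BRCA1, by 0.41. TDP1, which clears topoisomerase adducts, fell by 0.27. Of 22 ID, SMAD and TGF-beta feedback genes 6 fell, among them NEDD9 (-0.45) and SMAD7 (-0.56), and BAMBI, a pseudoreceptor with a low untreated level, rose by 1.02 but stood at -0.84 in NU-DHL-1. The caspase and IAP list had 3 of 17 lower, CFLAR (-0.24), CASP8 (-0.20) and FADD (-0.29). This is 17.6%, against 12.0% of genes above the median level, and the list median was 0.06 against 0.02 for all genes. Without U2932 and on the poly-A scale 0 were called lower.

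Of the KBTBD and KLHL adaptors 4 rose and 3 fell among 28, which is 25% called against 19.2% of genes above the median level. In each group that follows the share called was 19.4% or lower. In the groups not yet described, the numbers higher and lower were 1 and 1 of 14 circadian and BHLH repressors, 3 and 3 of 36 G1 and S phase genes, 3 and 2 of 26 arrestin-domain and nutrient genes, 3 and 3 of 31 ribosome biogenesis genes and 2 and 3 of 29 cytokines and chemokines. The counts were 1 and 2 of 23 for SOCS and JAK-STAT feedback, 1 and 2 of 24 for surface activation markers, 1 and 1 of 25 for B-cell receptor and antigen signalling, 0 and 4 of 35 for replication-dependent histones, 0 and 1 of 17 for the BCL2 family, 0 and 1 of 9 for small nucleolar RNA host genes and 0 and 1 of 20 for topoisomerases and drug handling. Named from these by smallest adjusted p, KLHL28 rose by 0.60, KBTBD4 by 0.43, PIM2, a survival kinase, by 0.36 and VEGFA by 0.45, while IL10RA fell by 0.63, CIITA, the master regulator of MHC class II, by 0.52, and SNHG17 by 0.45.

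A second test asked which genes responded differently by line. With 1 treated array per line, it took the spread of an array from the other arrays of the same line at 0 and 2 h and assumes that treated arrays vary alike. By this limma F test 1036 genes (5.24%) had a response that differed by line. With the low-dose arrays in the place of the high-dose arrays 3 genes did, but that fit had fewer arrays from which to take the spread. The high-dose fit of the same size, with untreated arrays only beside the treated ones, gave 492. Of the 1036 genes 335 were also called over the 6 lines, 80 higher and 255 lower, and 103 had lines at least 0.5 above and lines at least 0.5 below 0. For 501 of them FARAGE departed most from the other lines, and in 52 of these 501 upward. Without FARAGE 399 genes were called. RIVA was the line farthest from the others for 151 genes, U2932 for 127, NU-DHL-1 for 107, SU-DHL-5 for 98 and OCI-Ly7 for 52. In RIVA 131 of the 151 departures were upward.

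Feedback genes of NF-kB and MAP kinase signalling were among the genes with the smallest p for a difference by line. NFKBIA, the inhibitor IkB-alpha, whose promoter is printed above, stood untreated at 11.50 in FARAGE, 8.82 in NU-DHL-1, 9.30 in OCI-Ly7, 11.62 in RIVA, 10.43 in SU-DHL-5 and 9.82 in U2932. With the drug it stood at 9.75 in FARAGE, 10.85 in NU-DHL-1, 11.08 in OCI-Ly7, 12.84 in RIVA, 10.95 in SU-DHL-5 and 9.91 in U2932. The difference was -1.75 in FARAGE, 2.03 in NU-DHL-1, 1.78 in OCI-Ly7 and 0.09 in U2932 (line interaction adjusted p = 1.67e-09). Over the 6 lines its mean of 0.65 ± 0.35 was not called. NFKBIZ, another nuclear IkB protein gene, was at -2.19 in FARAGE, at 0.34 in OCI-Ly7 and between -0.58 and -0.39 in the others. The deubiquitinase gene TNFAIP3 (A20) was at -1.41 in FARAGE and at 1.11 in RIVA, and the subunit gene REL lay between -0.50 and 0.23 in the lines other than FARAGE, where it was lower. Of the 19 genes of this group 7 differed by line, and 4 did without FARAGE.

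DUSP2, a nuclear MAP kinase phosphatase, went from 10.7 to 8.18 in FARAGE and from 10.1 to 11.3 in RIVA. It differed by line with an adjusted p of 4.21e-11. The cytokine gene TNF was lower in FARAGE (-1.85) and NU-DHL-1 (-1.75) and higher in OCI-Ly7 (1.71), where its untreated level of 5.30 was the lowest of the 6 lines. The kinase gene SGK1 stood at 12.3 untreated in FARAGE, where the difference was -2.08, against 1.34 in OCI-Ly7. CD69, an early activation antigen, was higher by 1.60 in NU-DHL-1, 1.42 in OCI-Ly7 and 1.73 in RIVA, and stood at -1.42 in FARAGE and -0.68 in SU-DHL-5. SOCS1, a brake on JAK-STAT signalling, was at -2.38 in FARAGE and -2.02 in U2932 and at 0.53 in RIVA. BCL6, the germinal centre repressor, was at -1.25 in FARAGE and at 0.58 in NU-DHL-1, the line with the lowest untreated level (9.03 against 11.6 to 12.5).

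The GADD45 genes differed from each other. GADD45B had the smallest adjusted p of all genes for a difference by line (2.21e-13). It was higher by 3.52 in NU-DHL-1 and 2.80 in RIVA, by 1.88 in SU-DHL-5 and 1.67 in U2932, and by 0.20 in FARAGE and 0.21 in OCI-Ly7. NU-DHL-1 had the lowest untreated level (6.38). GADD45A was higher by 1.11 in SU-DHL-5 and stood at -0.97 in RIVA and -0.94 in U2932, and its mean over lines was 0.01. TAGAP, TIPARP, KLF10, WEE1, DYRK1A and ZNF764 completed the 16 genes with the smallest p. KLF10 was highest in NU-DHL-1 (1.71), and the other 5 were lowest in FARAGE, with the mitotic brake WEE1 at -1.28 there and between -0.57 and -0.17 elsewhere.

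For each line the genes that departed most from the median of the other lines are given as values. Some start at a low level, where a difference is imprecise. The lowest value of any probe set was 1.71 and the median gene averaged 5.83. The lists of markers of other cell types, a few of them above the median gene, averaged 3.96 to 5.46. In NU-DHL-1 the MYB-family factor MYBL1 went from 3.39 to 5.46 (4.15 at the low dose), and its differences lay between -0.08 and 0.31 in the other lines, whose untreated levels were 9.11 to 11.3. The vasoactive peptide gene ADM was higher there by 1.78. In OCI-Ly7 EGR1, a classical immediate early factor, was higher by 2.61 from the lowest untreated level of the 6 lines (3.95). EGR1 stood at 1.30 in NU-DHL-1 and between -0.52 and 0.14 in the rest. The transcript annotated MIR146A, which on this array can be only a long precursor and not the mature microRNA, was higher by 2.10 in OCI-Ly7 and by 1.47 in NU-DHL-1 and stood at -1.13 in SU-DHL-5. In RIVA the prostaglandin receptor PTGER4 was higher by 2.10, the kinase MAP3K8 by 1.10 and the E-protein inhibitor ID1 by 1.32, while MAP3K8 was at -1.46 in FARAGE and ID1 at 0.93 in SU-DHL-5. In SU-DHL-5 the integrin ITGA4 went from 2.81 to 4.36, both below the median gene, and its differences lay between -0.53 and -0.14 in the other lines. The maturation antigen CD83 was at -1.27 in U2932 and lower still in FARAGE, at -1.70, and lay between -0.58 and 0.56 in the other lines.

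The p53 target genes were called in few cases over all lines and differed by line in many. Of 28 measured 3 rose (SESN2, TNFRSF10B and FBXO22), 1 fell (POLH) and 24 did not pass. This is 14.3% called, against 19.2% of genes above the median level. But 17 of the 28 differed by line, against 5.24% of all genes, and in 14 of these 17 SU-DHL-5 had the highest value. In SU-DHL-5 27 of the 28 lay above 0 and 13 were at 0.5 or more. In the other lines 0 (U2932) to 4 (NU-DHL-1) reached 0.5. The median of the 28 was 0.43 in SU-DHL-5, against 0.02 for all genes there, and -0.08 (U2932) to 0.13 (FARAGE) in the other lines. The share of all genes that reached 0.5 in a line was not counted. The metabolic regulator TIGAR stood at 1.16 in SU-DHL-5 and between -0.06 and 0.34 elsewhere (line interaction adjusted p = 2.01e-06). The phosphatase PPM1D, which switches p53 signalling off, stood at 1.02 there and between -0.10 and 0.25 elsewhere. The kinase PLK3 (1.29), SESN1 (0.96) and the nuclease AEN (0.71) were highest in SU-DHL-5 too. FAS was instead highest in RIVA (1.32) and PMAIP1, the BH3-only gene NOXA, in NU-DHL-1 (0.71). SESN2, which other stress pathways also drive, was even, between 0.24 and 0.67. Without SU-DHL-5 6 of the 28 differed by line. The brightest probe set of POLH stood at -0.31 and the others between -0.12 and 0.39. With the mean of the probe sets, without FARAGE and without U2932, the p53 targets called lower numbered 0. Without SU-DHL-5 they numbered 2. The dimmer probe sets of TNFRSF10B stood at 0.31, 0.12 and -0.13, against 0.72 for the brightest.

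**Figure D4:**
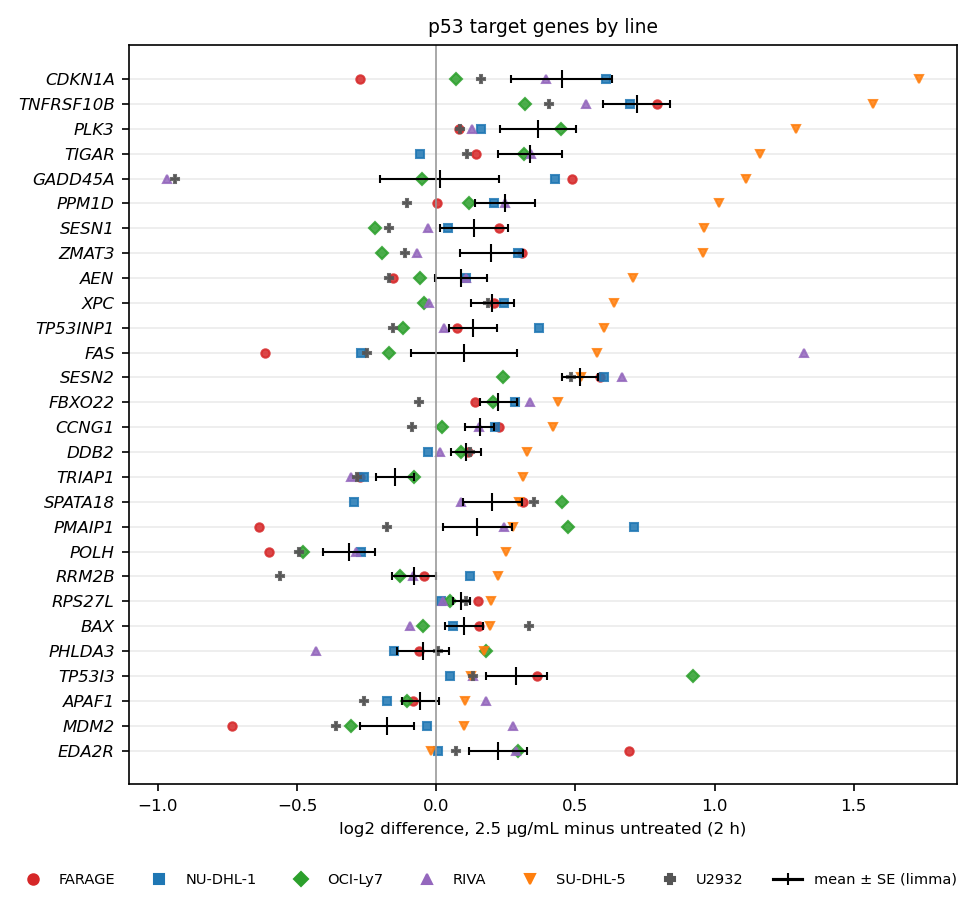
Log2 difference at 2 h in each line for the 28 p53 target genes measured, ordered by the value in SU-DHL-5 (orange), with the mean and limma standard error in black. In SU-DHL-5 13 of the genes reach 0.5 or more, against 0 to 4 in each of the other lines.

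Called genes also differed in gene span. Over genes above the median untreated level, the genomic span from RefSeq start to end had a median of 15.9 kb for genes called higher, 59.2 kb for genes called lower and 28.2 kb for those not called. In the shortest of 4 equal bins of these genes (up to 12 kb) 11.4% were called higher and 7.44% lower. The shares were 9.47% and 7.81% in the second, 5.99% and 10.4% in the third and 1.58% and 22.5% in the longest bin (over 65.5 kb). The median difference went from 0.05 in the shortest bin to -0.08 in the longest, and at the low dose from -0.01 to -0.01. Spearman's rho between span and difference was -0.29 over 9885 genes at the high dose and -0.02 at the low dose. It is given as a description across genes measured on the same arrays. The part of span in the falls of single groups was not tested.

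**Figure D5:**
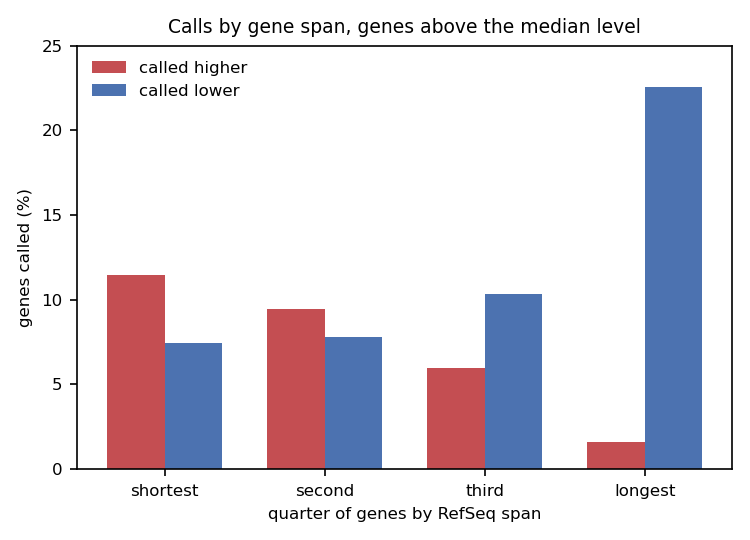
Percent of genes called higher (red) and lower (blue) after 2 h at 2.5 µg/mL in 4 equal bins of RefSeq gene span, among genes above the median untreated level. The share called lower is 7.44% in the shortest and 22.5% in the longest bin, and the share called higher 11.4% and 1.58%.

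Promoters were searched for short motifs on both strands in the window from 250 bases before to 50 after the RefSeq start, which was found for 656 of 796 genes called higher, 1063 of 1261 called lower and 8194 of 9887 genes above the median level. The core TGACGT of the cyclic AMP response element was in 15.2% of the promoters of genes called higher, 10.2% of those called lower, 12.5% of those above the median level and 8.32% of all promoters in the table. The longer form TGACNTCA printed above, which overlaps it, was in 7.93%, 6.21%, 6.46% and 7.97%, so that the window of most genes that rose held no match. The loose NF-kB motif named above was in 33.7%, 28.2%, 30.5% and 25.1%. The TATAAA of the TATA box was in 7.01%, 5.36%, 5.24% and 12.0%. A match is a description of letters and no evidence of binding.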

How the data were processed

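RNA of the 6 lines was measured on Affymetrix 3′ expression arrays, and the deposited values are log2 intensities made by the authors with RMA of the affy package in R 3.0.2, per the submitters' processing notes. All 54675 probe sets were read, and each of 19775 genes was represented by its brightest probe set, judged on all 49 arrays. Every column of the table belonged to a sample. The high dose was compared with untreated cells at 2 h with limma 3.58.1 (R 4.3.3), with a trended variance prior and the line as a block, since same-line arrays come from the same cell line, and p-values were adjusted by Benjamini-Hochberg over all genes. A moderated F test over 24 arrays tested the difference between lines. The fits were tested on simulated data. The array number limits the precision, and the labels name no repeated cultures. The p-values of the comparisons over all lines measure the spread between lines. Those of the F test measure a response against the spread between arrays of the same line, which are not labelled as repeated cultures.

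The genes named were ranks 1 to 24 by size among called genes with one sign in all lines and a mean above the median gene in their higher group, the 8 most uniform rises and falls of at least 0.5 (mean over SD), the 16 smallest p for a difference by line, 4 largest departures per line and up to 5 members per group by smallest adjusted p. The comparison, gene groups and tests were chosen with earlier results of these data known. Alternatives were centring, poly-A scaling, the mean of probe sets, no trend, no block, brighter genes, a joint fit and leaving out lines. The counts within groups under other settings, the low dose in place of the high dose for the test between lines, and the comparison of untreated cells at 2 h and 0 h were added after seeing the data. The poly-A scale for the comparison between doses was not planned either. 1 gene of the size ranks is not reported here.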

Additional observations from a re-analysis of the deposited data

Results flagged for a closer look

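In 113 sets of 6 values, 1 per line, 13 had a highest or lowest line farther from the others than Dixon's 95% limit. For a single set chance alone gives about 1 in 20. The 113 sets share the same arrays and are not independent, so that their count cannot be set against that rate. Nor does the rate hold for the genes chosen for a difference by line, among them NFKBIZ, WEE1 and ZNF764. FARAGE was the outlying line in 10 of the 13. It had 247 genes at least 2-fold lower and was the farthest line for 501 of the genes that differed by line. The drug left MYC at -2.73 in FARAGE, ZNF764 at -2.508, NFKBIZ at -2.189, ZNF567 at -1.863, NAIP at -1.439 and WEE1 at -1.283, each the lowest of its 6 values. IER3 was also lowest there, at 0.8986, as was the median of the surface activation markers, at -0.1084. RIVA was highest for MAFF, at 2.235, and for the median of the heat shock proteins, at 0.1243. OCI-Ly7 was highest for MXD1, at 1.848. The response differed between lines for 1036 genes by the limma interaction test, at a Benjamini-Hochberg adjusted p below 0.05.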

How the results depend on the processing

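Counts are genes called by limma at an adjusted p below 0.05. For the high dose against untreated cells (2057, with 796 higher and 1261 lower) they were 1004 without the variance trend (306 higher, 698 lower), 344 on the poly-A scale (28 and 316), 52 in the joint fit of all arrays (20 and 32) and 32 with at least 2-fold (18 and 14), and centring left 524 higher. Without the replicate block that pairs arrays of a line 0 were called (0 higher, 0 lower), since the differences between lines then count as error. Leaving out each line in turn gave 1368 (without U2932) to 1729 (without RIVA), with 498 (without U2932) to 641 (without FARAGE) higher and 870 to 1162 lower. The number higher was 511 without SU-DHL-5. High against low dose gave 1012 without the trend, 0 without the replicate block, 1835 on the poly-A scale and 1419 to 1675 with a line left out. The low dose against untreated cells gave 0 under each alternative. Responses that differed by line numbered 492 with untreated arrays only, 661 without the trend, 638 with the mean of the probe sets, and 399 (without FARAGE) to 1019 (without RIVA) with a line left out. Of 219 named differences 183 lost their call without the block, 101 on the poly-A scale, 45 with the mean of the probe sets and 18 to 33 with a line left out. The sign turned with the mean of the probe sets for POLH (0.01035), CDCA7 (0.1293) and POLR1F (-0.01954). It turned on the poly-A scale for HSPH1 (-0.02223), HSPE1 (-0.07038), PRDX1 (-0.0663), MCM5 (-0.002092), ODC1 (-0.08219), NDUFB9 (-0.02121), NDUFA2 (-0.02385), NDUFB5 (-0.02642), NDUFB1 (-0.05326) and NDUFB10 (-0.004162). Apart from the loss of the block, the cause of these changes was not tested.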
